A study of Rattus norvegicus with 13 samples.

Results

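A set of 7 genes was followed across 13 arrays of cultured rat cells, namely Egr2, Gap43, Ptprz1, Kit, Mitf, Map2 and Chrna1. They are 7 of the 14506 genes measured, and were taken by name from an earlier account of these data, matched by gene symbol to probe sets that carry exactly 1 symbol, and each had a single such probe set. They are known from Schwann cells, melanocytes, neurons and the motor endplate. For 6 of them the recorded reason was a higher level in skin-derived precursors than in stromal cells: they were chosen by that measured difference, so it is given below as a description without a test. The contrast that led to Ptprz1 is not recorded, so its values are a description throughout.

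All cells came from adult Sprague Dawley rats and had been passaged 2 times. Skin-derived precursors (SKPs) are dermal cells that grow as spheres and show neural crest-like properties. They had been isolated from dorsal trunk skin, ventral trunk skin and facial skin, with 3 isolates called independent from each region, and 4 isolates of mesenchymal stromal cells (MSCs) served as the other adult mesenchymal cell. No group carried a transgene, deletion or added agent in the labels, and the tissue of the MSCs, the culture media and whether isolates came from separate animals were not stated in the sources at hand. P-values therefore measure the spread between isolates. Levels are log2 values normalised by the authors, so a step of 1 is a doubling, and they are compared between samples for 1 gene, never between genes.

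The neural crest is an embryonic cell population that gives rise to Schwann cells, melanocytes, peripheral neurons and much of the facial mesenchyme. Schwann cells pass from a precursor marked by the transcription factor Sox10 and the growth-associated protein Gap43 to a myelinating state driven by Egr2. Melanocytes need the receptor tyrosine kinase Kit and the transcription factor Mitf, which switches on pigment enzymes such as tyrosinase. Several of these genes have other sites of use: Egr2 is also an immediate early gene of growth factor signalling, Kit and Mitf act in mast cells, and Mitf acts in macrophages and osteoclasts.

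The labels were checked against markers. Of 15 neural crest and SKP markers 7 rose in SKPs over MSCs, 3 fell and 5 did not pass, and of 10 stromal surface markers 3 rose, 2 fell and 5 did not pass. Sox2 and Twist1, which SKPs share with the neural crest, rose in SKPs over MSCs by 1.70 (SE 0.24, adjusted p = 0.00031) and 1.72 (SE 0.29, adjusted p = 0.000953), whereas the neural crest factor Snai2 fell by 1.22 (SE 0.36, adjusted p = 0.0271). Of the stromal proteins, Alcam rose by 1.59 (SE 0.23, adjusted p = 0.000341), Mcam fell by 2.31 (SE 0.77, adjusted p = 0.0473, kept in 5 of 21 alternatives), and Cd44 (0.25, SE 0.14) and Thy1 (-0.51, SE 0.38) did not pass. Adjusted p-values here and below are from limma, two-sided, with Benjamini-Hochberg adjustment over all genes of a comparison, and a gene is called under 0.05. Between SKPs and MSCs 25.3% of all genes passed, with 13.1% higher in SKPs and 12.2% higher in MSCs. Macrophage markers were not level between isolates: the mean of 20 such genes was 7.14, 5.0 and 4.17 on dorsal arrays 1 to 3, 7.76, 6.27 and 10.06 on facial arrays, 5.21, 5.19 and 5.53 on ventral arrays, and 4.10 to 4.68 in MSCs. All 20 stood above background in facial SKPs and 16 in MSCs, where background is the 25th percentile of a group's gene means (3.79 to 3.84). Dorsal array 3 also stood apart from dorsal arrays 1 and 2. Calls of the 7 genes between regions that changed without dorsal array 3 or facial array 3 are given below. Counts of the gene lists are from all 13 arrays unless stated, and several moved when 1 of these arrays was left out. Without dorsal array 3, 8 neural crest markers rose and 3 fell, and 4 stromal markers rose and 1 fell. Without facial array 3 these counts were 7 and 2, and 3 and 1. With the mean of the macrophage genes as a covariate in the fit they were 7 and 0, and 1 and 0. The call of Snai2 was thus lost in that fit.

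**Figure D1:**
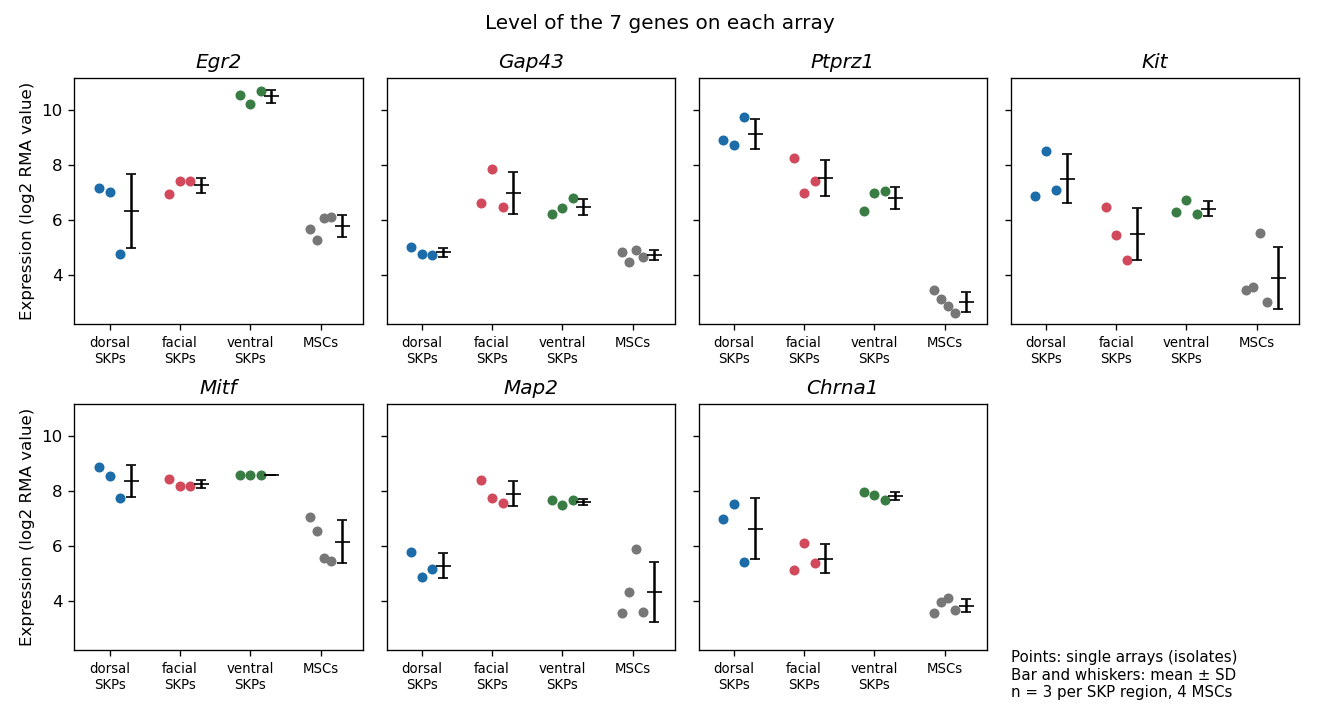
Levels of the 7 genes (vertical axes, log2 RMA values) on single arrays of each SKP region and of MSCs, with the mean and SD beside each group. Egr2 stood at 10.22 or more on the ventral arrays and at 7.41 or less on all others, Gap43 and Map2 were low in dorsal SKPs and MSCs, Ptprz1 was highest in dorsal SKPs, and Mitf was nearly level across the 3 regions.

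Egr2 encodes a zinc finger transcription factor that drives the myelin program of Schwann cells, and in many cells it is induced within minutes by growth factors. Its promoter is shown because Egr2 had the largest difference between regions among the 7 genes. The sequence holds the 250 bases before the annotated start (RefSeq, GRCr8, chr20:21054442-21054691, minus strand), 5′ to 3′. Capitals mark a CArG box, the 10-base element bound by serum response factor, and the E-box CATGTG.
Egr2 promoter: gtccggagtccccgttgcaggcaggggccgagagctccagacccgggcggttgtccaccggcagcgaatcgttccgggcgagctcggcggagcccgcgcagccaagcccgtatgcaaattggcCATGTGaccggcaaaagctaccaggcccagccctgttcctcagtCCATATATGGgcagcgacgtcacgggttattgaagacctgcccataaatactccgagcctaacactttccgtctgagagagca
The CArG box CCATATATGG lay 83 to 74 bases before the start and CATGTG 127 to 122 bases before it. Both strands were searched, and the motifs do not overlap. A CArG box was found in 1.5% of 33469 promoter windows of this length and CATGTG in 12.1%. These matches are descriptions of letters.

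Egr2 stood at 10.56, 10.22 and 10.70 on the ventral arrays, at 6.96, 7.41 and 7.41 on the facial arrays, at 7.17, 7.01 and 4.78 on the dorsal arrays, and at 5.66, 5.28, 6.08 and 6.11 on the MSC arrays. The 3 ventral isolates were high and alike, and dorsal array 3 was below every MSC array. Facial and dorsal SKPs overlapped with each other, and dorsal SKPs with MSCs. The mean was 10.49 ± 0.25 (SD, n = 3) in ventral, 7.26 ± 0.26 (n = 3) in facial and 6.32 ± 1.34 (n = 3) in dorsal SKPs and 5.78 ± 0.39 (n = 4) in MSCs. Egr2 was 18.0-fold lower in dorsal than in ventral SKPs (log2 difference -4.17, SE 0.50, limma adjusted p = 0.000848) and 9.42-fold lower in facial than in ventral SKPs (-3.23, SE 0.50, adjusted p = 0.00325). Without dorsal array 3 the first of these was -3.40. Facial and dorsal SKPs did not differ beyond their spread (0.94, SE 0.50, adjusted p = 0.424), and the value was 0.17 without dorsal array 3. Neither did facial and trunk SKPs, trunk being the average of both trunk regions (-1.15, SE 0.43, adjusted p = 0.187). The last difference was called without dorsal array 3, at -1.53 (adjusted p = 0.00254). As a description, the mean of all SKPs exceeded that of MSCs by 2.24 (SE 0.37), and 8 of 9 SKP arrays lay above every MSC array.

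Of 16 measured relatives, corepressors and immediate early genes, 2 rose in SKPs over MSCs, 3 fell and 11 did not pass, with a median difference of -0.07 against -0.02 over all genes. These counts, and those of the later lists against MSCs, are read against the shares of all genes (13.1% higher and 12.2% lower). Without dorsal array 3, 2 rose and 5 fell. Egr3, the closest in action, rose by 1.42 (SE 0.21, adjusted p = 0.000441) with all 9 SKP arrays above the MSC arrays, and Jun, a subunit of AP-1, rose by 0.91 (SE 0.13, adjusted p = 0.000315). Fos, its partner, fell by 1.63 (SE 0.24, adjusted p = 0.000348), and serum response factor (Srf) fell by 0.80 (SE 0.12, adjusted p = 0.000495). Egr1 stood at -0.70 (SE 0.25, adjusted p = 0.0587) and Nab2, a corepressor of Egr proteins, at -0.45 (SE 0.19, adjusted p = 0.106). Egr1 was called without dorsal array 2 (adjusted p = 0.000161), and Nab2 was called without dorsal array 3 and with array weights (adjusted p = 0.0159 to 0.683 over the alternatives). Between ventral and the other regions, where Egr2 differed most, 0 of these 16 genes passed in facial minus ventral SKPs, where 6.6% of all genes were called and 6 of the 16 had an unadjusted p under 0.05, and 1 passed in dorsal minus ventral SKPs. That gene was Fosl2, at 1.0 (SE 0.24, adjusted p = 0.0331), on the dorsal side. Its call was lost without any 1 of the ventral arrays, with adjusted p = 0.00743 to 0.151 over the alternatives.

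Gap43 encodes a membrane phosphoprotein of growth cones that is also made by Schwann cell precursors and non-myelinating Schwann cells. It stood at 6.62, 7.84 and 6.46 on the facial arrays and 6.21, 6.44 and 6.80 on the ventral arrays. On the dorsal arrays it stood at 5.03, 4.75 and 4.72, and on the MSC arrays at 4.84, 4.49, 4.92 and 4.66. Dorsal SKPs thus lay in the range of MSCs or just above it, and facial and ventral SKPs lay above both without overlap. The group means were 6.97 ± 0.76 in facial, 6.48 ± 0.29 in ventral and 4.83 ± 0.17 in dorsal SKPs (SD, n = 3 each) and 4.73 ± 0.19 in MSCs (n = 4). Gap43 was 4.41-fold higher in facial than in dorsal SKPs (log2 difference 2.14, SE 0.30, limma adjusted p = 0.00482) and lower in dorsal than in ventral SKPs by 3.13-fold (-1.65, SE 0.30, adjusted p = 0.00971). Facial and ventral SKPs overlapped and did not pass (0.49, SE 0.30, adjusted p = 0.379). Facial SKPs exceeded trunk SKPs by 1.32 (SE 0.26, adjusted p = 0.0249), a call that was lost without ventral array 1 (0.063) or ventral array 2 (0.056) and with the macrophage mean as a covariate (0.0923), and the value was 0.88 without facial array 2. The facial minus dorsal call was lost when only those 2 groups were fitted (adjusted p = 0.137).

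Gap43 was set beside a list of growth cone genes that also held the transcription factors Klf7 and Atf3. Of 14 measured, 0 rose in SKPs over MSCs, 5 fell and 9 did not pass, with a median of -0.25 against -0.02 over all genes. Over all genes 13.1% were called higher and 12.2% lower. Without dorsal array 3, 1 rose and 5 fell, and with the macrophage mean as a covariate 1 rose and 3 fell. The number that fell was 3 to 6 over the alternatives. Basp1, which like Gap43 binds phosphoinositides at the membrane, fell by 1.84 (SE 0.19, adjusted p = 3.44e-05), the tubulin-binding Stmn1 fell by 1.56 (SE 0.28, adjusted p = 0.00171) and its neuronal relative Stmn2 fell by 1.17 (SE 0.35, adjusted p = 0.0288). The Stmn2 call was lost without any 1 of MSC array 1, MSC array 3 and ventral array 2, and with the macrophage mean as a covariate (adjusted p = 0.0103 to 0.181 over the alternatives). Stmn2 stood at 6.87 on MSC array 3 and at 4.49 to 5.44 on the other MSC arrays.

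Map2 encodes the microtubule-associated protein of neuronal dendrites and shared the pattern of Gap43 across groups. On the facial arrays it stood at 8.41, 7.74 and 7.56 and on the ventral arrays at 7.68, 7.48 and 7.66. It stood at 5.79, 4.88 and 5.16 on the dorsal arrays and at 3.55, 4.34, 5.88 and 3.6 on the MSC arrays. MSC array 3 was above all dorsal arrays, while facial and ventral SKPs lay above both groups without overlap. Group means were 7.90 ± 0.45 in facial, 7.61 ± 0.11 in ventral and 5.28 ± 0.46 in dorsal SKPs (SD, n = 3 each) and 4.34 ± 1.09 in MSCs (n = 4). Map2 was 6.18-fold higher in facial than in dorsal SKPs (log2 difference 2.63, SE 0.51, limma adjusted p = 0.0287) and 5.02-fold lower in dorsal than in ventral SKPs (-2.33, SE 0.51, adjusted p = 0.0204). Facial and ventral SKPs did not pass (0.30, SE 0.51, adjusted p = 0.8), and facial minus trunk SKPs was 1.46 (SE 0.44, adjusted p = 0.0995). The facial minus dorsal call was lost without dorsal array 2 or 3, without any 1 facial array, without ventral array 1 or 3 (adjusted p = 0.0536 to 0.0914) and with the macrophage mean as a covariate (0.292). The dorsal minus ventral call was lost without dorsal array 2 or any 1 ventral array (0.0568 to 0.0765), while facial minus trunk was called without MSC array 3 (0.0148).

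Other neuronal and microtubule genes moved in both directions or did not pass. Of 12 other neuronal microtubule-associated proteins and tubulins, 1 rose in SKPs over MSCs (Dclk1, 1.38, SE 0.36, adjusted p = 0.014, and 0.124 with the macrophage mean as a covariate), 3 fell and 8 did not pass. Without dorsal array 3, 1 rose and 4 fell, and without facial array 3, 2 rose and 3 fell. Tuba1a fell by 0.73 (SE 0.12, adjusted p = 0.000688), and Map1b (0.09, SE 0.23) and the neuronal tubulin Tubb3 (0.31, SE 0.21) did not pass, though Map1b was called without MSC array 3 (adjusted p = 0.0498) and Tubb3 with the macrophage mean as a covariate (0.0373). Of 17 other neuronal markers, 1 rose (the synaptic calcium sensor Syt1, 0.56, SE 0.18, adjusted p = 0.0437), 2 fell (the deubiquitinase Uchl1, -1.92, SE 0.43, adjusted p = 0.0064, and Stmn2) and 14 did not pass, with a median of -0.05. With the macrophage mean as a covariate 0 fell, and Uchl1 had adjusted p = 0.129. Syt1 was below background in all 4 groups (means of 2.75 to 3.61), so the size of its rise is not resolved. The Syt1 call was lost without any 1 facial array, any 1 ventral array or MSC array 1, 2 or 3, with adjusted p = 0.0149 to 0.395 over the alternatives. Elavl4, an RNA-binding protein of neurons, lay at 2.43 to 2.61 in all 4 groups, below background. Between regions 0 of these 17 genes were called in facial minus dorsal SKPs (1.25% of all genes), facial minus ventral SKPs (6.6%), dorsal minus ventral SKPs (6.11%) or facial minus trunk SKPs (2.7%). At an unadjusted p under 0.05 there were 2, 2, 6 and 1 in these comparisons. The neurofilament Nefm stood at 8.15 on dorsal array 3 and at 2.88 to 4.25 on the other 12 arrays, and the synaptic protein Snap25 stood at 5.96 on that array and 5.45 on facial array 1 against 3.15 to 4.98 elsewhere.

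Ptprz1 encodes a receptor tyrosine phosphatase of glia and Schwann cells whose ligands include pleiotrophin, midkine and contactin 1. It stood at 8.89, 8.73 and 9.75 on the dorsal arrays, 8.25, 6.97 and 7.40 on the facial arrays, 6.33, 6.97 and 7.07 on the ventral arrays, and 3.46, 3.12, 2.88 and 2.62 on the MSC arrays. No SKP array overlapped with MSCs, where the gene was below background (3.83), so the size of that difference is not resolved. Dorsal SKPs lay above both other regions, which overlapped. The means were 9.12 ± 0.55 in dorsal, 7.54 ± 0.65 in facial and, for ventral SKPs, 6.79 ± 0.40 (SD, n = 3 each) and 3.02 ± 0.36 in MSCs (n = 4). The difference between SKPs and MSCs was 4.80 (SE 0.26), and between regions it was 2.33 (SE 0.36) for dorsal minus ventral, -1.58 (SE 0.36) for facial minus dorsal and 0.75 (SE 0.36) for facial minus ventral SKPs.

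Ligands and partners of Ptprz1 were higher in SKPs in more than 1 case. Of 13 measured, 7 rose over MSCs, 1 fell and 5 did not pass, with a median of 0.90 against -0.02 over all genes. Contactin 1 (Cntn1), a neural adhesion molecule that binds the receptor's outer part, stood at 8.61, 7.86 and 7.13 on dorsal, 8.92, 7.72 and 8.90 on facial and 8.97, 9.07 and 9.08 on ventral arrays, against 3.67 to 4.14 on MSC arrays. That was a 23.2-fold difference without overlap (log2 difference 4.53, SE 0.27, limma adjusted p = 4.62e-07). The MSC arrays lay around background (3.83), so the size of that difference is not resolved. Midkine (Mdk) rose by 1.13 (SE 0.23, adjusted p = 0.00346). Pleiotrophin (Ptn) rose by 1.52 (SE 0.22, adjusted p = 0.000325), with a spread between regions: it stood at 6.51, 6.20 and 7.06 on ventral and 3.82, 5.08 and 4.07 on facial arrays, but at 3.00 to 3.22 on dorsal arrays, within the MSC range of 2.94 to 3.35. The order of Ptn over the regions was thus the opposite of that of Ptprz1, with dorsal SKPs below ventral SKPs (difference -3.50, SE 0.30, adjusted p = 6.56e-05) and facial SKPs below them (-2.27, SE 0.30, adjusted p = 0.00134). Ptn lost its call over MSCs when SKPs were fitted as 1 group (adjusted p = 0.185). It was below background in dorsal SKPs and MSCs (means of 3.09 and 3.15), so the sizes of its differences from these groups are not resolved. The kinase Alk, reported as a receptor for pleiotrophin and midkine, rose by 1.48 (SE 0.26, adjusted p = 0.00143), and syndecan 3 (Sdc3) fell by 1.13 (SE 0.24, adjusted p = 0.00415).

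Defining markers of Schwann cells did not pass between SKPs and MSCs. Sox10 had group means of 5.17 to 5.33 over the SKP regions and 5.06 in MSCs (difference 0.17, SE 0.09, limma adjusted p = 0.202). The calcium-binding protein S100b (-0.03, SE 0.28, adjusted p = 0.952) and the neuregulin receptor Erbb3 (0.40, SE 0.19, adjusted p = 0.162) did not pass. Of 20 Schwann and glial markers other than the 7 genes, 4 rose over MSCs, 3 fell and 13 did not pass, with a median of 0.06. Those that rose were the myelin proteolipid Mal (3.21, SE 0.60, adjusted p = 0.00203), Sox2, the neurotrophin receptor Ngfr (1.09, SE 0.21, adjusted p = 0.00228) and Drp2, a dystrophin-related protein (0.79, SE 0.20, adjusted p = 0.0114). Ncam1 (-1.89, SE 0.28, adjusted p = 0.000431), the myelin protein Pmp22 (-1.0, SE 0.20, adjusted p = 0.00337) and periaxin (Prx, -0.59, SE 0.13, adjusted p = 0.00704) fell. Drp2 was below background in MSCs (mean of 3.57, background 3.83), so the size of its rise is not resolved. Without dorsal array 3 the counts of Schwann and glial markers were 5 and 3, and without facial array 3 they were 4 and 3. For scale, 13.1% of all genes were called higher in SKPs and 12.2% lower.

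Kit, the receptor for stem cell factor on melanoblasts, mast cells and blood progenitors, was highest in dorsal SKPs. It stood at 6.87, 8.52 and 7.10 on dorsal, 6.30, 6.72 and 6.21 on ventral, 6.47, 5.46 and 4.56 on facial and 3.44, 3.58, 5.54 and 3.03 on MSC arrays. Dorsal arrays lay above all others, facial and ventral arrays overlapped, and MSC array 3 was above facial arrays 2 and 3. Means were 7.5 ± 0.89 in dorsal, 6.41 ± 0.27 in ventral and 5.5 ± 0.95 in facial SKPs (SD, n = 3 each) and 3.90 ± 1.12 in MSCs (n = 4), so that SKPs exceeded MSCs by 2.57 (SE 0.48). On MSC arrays 1, 2 and 4 Kit was below background (3.83), so the size of that difference is not resolved. No regional difference of Kit passed. Facial minus dorsal SKPs was -2.0 (SE 0.65, limma adjusted p = 0.191), facial minus ventral -0.91 (SE 0.65, adjusted p = 0.463), dorsal minus ventral 1.09 (SE 0.65, adjusted p = 0.376) and facial minus trunk -1.46 (SE 0.56, adjusted p = 0.199). The lowest SKP value of Kit was on facial array 3, which had the highest macrophage mean (10.06), and the part of those cells in the result was not tested beyond the fit with the macrophage mean as a covariate, where facial minus dorsal SKPs was -1.27 (adjusted p = 0.77). In a culture, fewer cells with a transcript and less transcript per cell cannot be told apart.

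Some genes of Kit signalling rose in SKPs. Of 14 measured, 6 rose over MSCs, 0 fell and 8 did not pass, with a median of 0.98, and 4 rose with the macrophage mean as a covariate. The transcription factor Etv1, which Kit signalling stabilises in some cells, rose by 2.19 (SE 0.16, adjusted p = 1.91e-06). The related receptor Pdgfra rose by 1.63 (SE 0.47, adjusted p = 0.0231), and Pik3r1, the regulatory subunit of PI3 kinase, by 1.52 (SE 0.10, adjusted p = 6.23e-07). The ligand itself, stem cell factor (Kitlg), rose by 1.12 (SE 0.26, adjusted p = 0.00686) with all SKP arrays above the MSC arrays, and lost its call with the macrophage mean as a covariate (0.122). The Pdgfra call was lost without MSC array 3 or 4, with the macrophage mean as a covariate and with the sample number as a block, with adjusted p = 0.00317 to 0.235 over the alternatives. Of 11 mast cell markers, 1 to 3 lay above background in any group, and their mean ran from 2.84 to 3.10 over the SKP arrays and from 3.00 to 3.16 over the MSC arrays. Carboxypeptidase Cpa3 and the Fc receptor chains Fcer1a and Ms4a2 lay between 2.01 and 2.32 in every group. The transcription factor Gata2 stood at 4.45 to 6.32, above background, and fell by 0.80 in SKPs (SE 0.19, adjusted p = 0.00962), a call lost when SKPs were fitted as 1 group or with the macrophage mean as a covariate (up to 0.161). Gata2 was higher in facial than in ventral SKPs by 1.15 (SE 0.26, adjusted p = 0.0245) and higher than in trunk SKPs by 1.15 (SE 0.23, adjusted p = 0.0249). Both calls were lost without facial array 1 or 2 or any 1 ventral array and with the covariate (up to 0.0932 and 0.102). The monoamine transporter Slc18a2 was higher in ventral SKPs than in facial (-1.48 for facial minus ventral, SE 0.19, adjusted p = 0.00112) and dorsal SKPs (-1.34 for dorsal minus ventral, SE 0.19, adjusted p = 0.00216), at 3.95 to 4.49 there and under background on all other arrays.

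Mitf was the most even of the 7 genes across regions. It stood at 8.57, 8.58 and 8.57 on ventral, 8.43, 8.19 and 8.16 on facial and 8.86, 8.53 and 7.73 on dorsal arrays, against 7.06, 6.55, 5.56 and 5.44 on MSC arrays. All SKP arrays lay above all MSC arrays, and MSC arrays 1 and 2 lay above MSC arrays 3 and 4. Means were 8.57 ± 0.01 in ventral, 8.26 ± 0.15 in facial and 8.37 ± 0.58 in dorsal SKPs (SD, n = 3 each) and 6.15 ± 0.78 in MSCs (n = 4), a difference of 2.25 (SE 0.29) between SKPs and MSCs. No regional difference passed: facial minus dorsal was -0.11 (SE 0.39, limma adjusted p = 0.928), facial minus ventral -0.31 (SE 0.39, adjusted p = 0.712) and dorsal minus ventral -0.20 (SE 0.39, adjusted p = 0.827). A p above the threshold does not show that the regions were alike.

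The pigment enzymes Tyr (2.17 to 2.5 over the 4 groups) and Tyrp1 (3.50 to 3.80) were below background in every group, with differences of -0.17 (SE 0.09, adjusted p = 0.208) and -0.18 (SE 0.07, adjusted p = 0.0853), and Dct and Pmel were not measured. Of 11 melanocyte markers other than Kit and Mitf, 4 rose over MSCs, 0 fell and 7 did not pass, with a median of 0.17. Rab38, which carries pigment enzymes to melanosomes, rose by 1.82 (SE 0.25, adjusted p = 0.00025), with 9 of 9 SKP arrays above the MSC arrays. The melanosomal protein Mlana rose by 1.58 (SE 0.50, adjusted p = 0.0377), at 6.38, 6.67 and 9.71 on dorsal, 5.94, 5.70 and 4.74 on facial and 7.05, 7.13 and 6.52 on ventral arrays against 4.85 to 5.5 in MSCs. Its call was lost without facial array 1 or 2, ventral array 1 or 2 or any 1 MSC array (adjusted p = 0.0018 to 0.104 over the alternatives). Pax3, an activator of Mitf, rose by 1.30 (SE 0.22, adjusted p = 0.00095) through the facial arrays alone (8.34 to 9.20 there, 3.85 to 5.07 on all other arrays). The Pax3 call was lost when SKPs were fitted as 1 group (adjusted p = 0.46). The channel Trpm1 rose by 0.62 (SE 0.20, adjusted p = 0.0395). Its call was also lost when SKPs were fitted as 1 group, where Rab38 alone of the 11 markers rose. Over the alternatives 1 to 4 of the 11 rose and 0 to 1 fell.

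Of 16 family members and targets of Mitf, 4 rose over MSCs, 1 fell and 11 did not pass, with a median of -0.12. This list shares genes with the melanocyte markers: Mlana and Trpm1 were counted as risen in both, so the counts are not separate results. Without dorsal array 3, 4 rose and 2 fell, and over the alternatives 1 to 4 rose and 0 to 2 fell. The transmembrane glycoprotein Gpnmb, made by melanocytes, osteoclasts and macrophages, rose by 2.99 (SE 0.25, limma adjusted p = 4.9e-06), from 8.66 to 9.76 on MSC arrays to 11.65 to 13.18 on SKP arrays. The protease cathepsin K (Ctsk) rose by 1.02 (SE 0.16, adjusted p = 0.000625) and was higher in ventral SKPs than in dorsal (-1.65 for dorsal minus ventral, SE 0.22, adjusted p = 0.00165) or facial SKPs (-1.72 for facial minus ventral, SE 0.22, adjusted p = 0.00122). The receptor tyrosine kinase Met fell by 1.21 (SE 0.31, adjusted p = 0.0124), a call lost with the macrophage mean as a covariate (0.00107 to 0.184 over the alternatives). Macrophage genes themselves moved with SKPs: 10 of 20 rose over MSCs, with Cd68 at 3.39 (SE 0.58, adjusted p = 0.0011) and Ptprc, the leukocyte antigen CD45, at 2.19 (SE 0.73, adjusted p = 0.046, 0.0138 to 0.983 over the alternatives). The Ptprc call was lost without facial array 1, any 1 ventral array or any 1 MSC array. It was also lost with the macrophage mean as a covariate, but Ptprc is part of that mean, so that fit cannot test it. Mitf stood at 7.73 on dorsal array 3 and 8.16 on facial array 3, the SKP arrays with the lowest and the highest macrophage mean, and with that mean as a covariate SKPs exceeded MSCs by 1.92, the lowest value over the alternatives.

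Chrna1 encodes the alpha 1 subunit of the muscle acetylcholine receptor, which binds acetylcholine at the motor endplate. Its promoter is shown because Chrna1 was, like Egr2, highest in ventral SKPs, and capitals mark the E-box CAGCTG, a form bound by myogenic factors. The window holds the 250 bases before the start (RefSeq, GRCr8, chr3:78877354-78877603, minus strand), 5′ to 3′.
Chrna1 promoter: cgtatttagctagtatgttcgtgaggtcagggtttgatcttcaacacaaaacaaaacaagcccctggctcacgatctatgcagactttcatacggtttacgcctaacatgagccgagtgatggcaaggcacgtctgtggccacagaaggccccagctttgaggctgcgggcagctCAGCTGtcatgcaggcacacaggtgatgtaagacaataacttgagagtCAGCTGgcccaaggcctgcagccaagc
The copies of CAGCTG, which reads the same on both strands, lay 75 to 70 and 27 to 22 bases before the start, and 12% of windows held at least 1. Neither a CArG box nor CATGTG was found here, nor CACGTG, which 5.59% of windows held. Of these 4 motifs Map2 held CATGTG alone, and none was found in the windows of Kit and Mitf. Gap43 and Ptprz1 had no entry.

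Chrna1 stood at 7.94, 7.85 and 7.65 on ventral, 6.96, 7.53 and 5.40 on dorsal, 5.11, 6.12 and 5.37 on facial and 3.57, 3.95, 4.12 and 3.68 on MSC arrays. All SKP arrays lay above all MSC arrays, ventral arrays lay above all others, and dorsal array 3 fell among the facial arrays. Means were 7.82 ± 0.15 in ventral, 6.63 ± 1.10 in dorsal and 5.54 ± 0.52 in facial SKPs (SD, n = 3 each) and 3.83 ± 0.25 in MSCs (n = 4), and SKPs exceeded MSCs by 2.83 (SE 0.32). The MSC mean was at background (3.83), so the size of that difference is not resolved. Chrna1 was 4.85-fold lower in facial than in ventral SKPs (log2 difference -2.28, SE 0.43, limma adjusted p = 0.0105), a call lost with the macrophage mean as a covariate (0.0863). Facial minus dorsal (-1.10, SE 0.43, adjusted p = 0.282) and dorsal minus ventral SKPs (-1.18, SE 0.43, adjusted p = 0.135) did not pass, but the first was -1.71 without dorsal array 3 (adjusted p = 0.016) and -0.64 without dorsal array 2. The second was -1.63 without dorsal array 2 (adjusted p = 0.0432) and -0.57 without dorsal array 3. Facial SKPs lay below trunk SKPs (-1.69, SE 0.38, adjusted p = 0.0389), a call lost without dorsal array 1, facial array 1 or 3, MSC array 1, 2 or 4, or any 1 ventral array (0.0536 to 0.147).

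The other subunits of nicotinic receptors did not pass against MSCs. Of 15 measured, 0 were called between SKPs and MSCs by limma, and the median difference was -0.04 against -0.02 over all genes. At an unadjusted p under 0.05 there were 2, Chrna7 and Chrne. The partners of the muscle receptor, Chrnb1 (-0.20, SE 0.10, adjusted p = 0.17), Chrnd (0.03, SE 0.11, adjusted p = 0.876), Chrng (0.06, SE 0.12, adjusted p = 0.773) and Chrne (-0.25, SE 0.09, adjusted p = 0.0618), lay between 3.01 and 4.47 in every group. Chrne was called without MSC array 2 (adjusted p = 0.0452). The homomeric subunit Chrna7 was higher in ventral SKPs than in facial (-0.75 for facial minus ventral, SE 0.14, adjusted p = 0.00842) or dorsal SKPs (-0.65 for dorsal minus ventral, SE 0.14, adjusted p = 0.0184), at 4.35 to 4.68 on ventral and 3.61 to 4.02 on all other arrays. The second of these calls was lost without ventral array 1 or 3 (adjusted p = 0.0156 to 0.0843 over the alternatives).

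**Figure D2:**
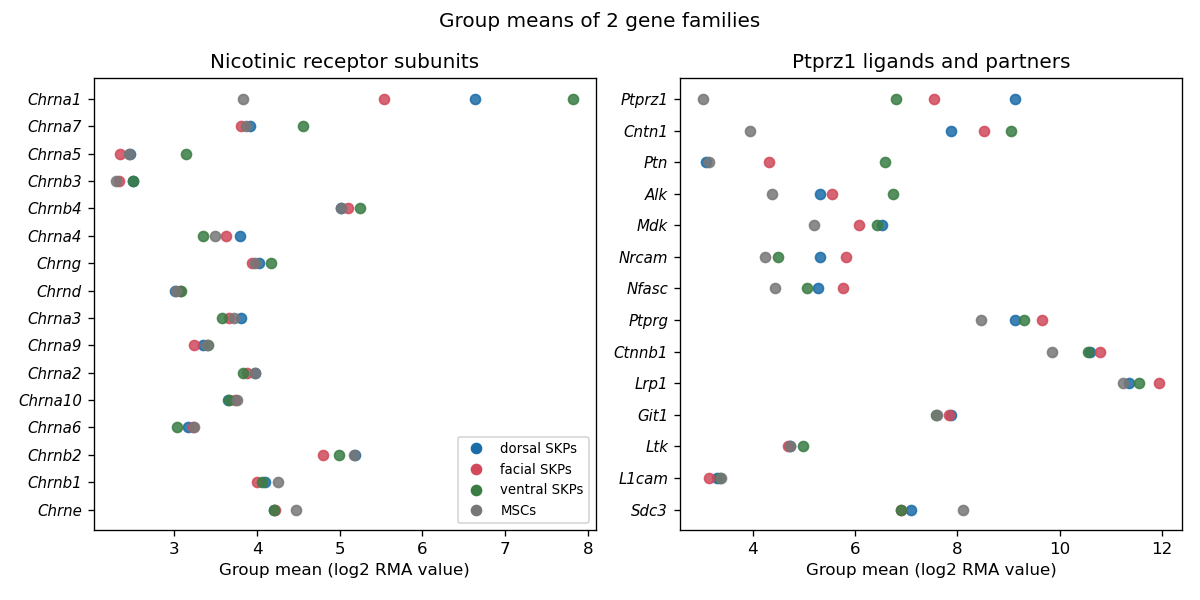
Group means (log2 RMA values) of nicotinic receptor subunits and of Ptprz1 with its ligands and partners, for the 3 SKP regions and MSCs. Chrna1 spreads from 3.83 in MSCs to 7.82 in ventral SKPs while the means of each other subunit lie closer together, and Ptn is highest in ventral SKPs where Ptprz1 is lowest among the regions.

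Muscle markers other than Chrna1 did not rise. Of 19 measured, 0 rose in SKPs over MSCs, 5 fell and 14 did not pass, with a median of -0.18. The intermediate filament desmin (Des) fell by 2.26 (SE 0.42, limma adjusted p = 0.00176), rapsyn (Rapsn), which clusters the acetylcholine receptor, fell by 1.69 (SE 0.23, adjusted p = 0.000201), and the actin Acta1 fell by 1.60 (SE 0.40, adjusted p = 0.012). The myogenic factor Myod1 fell by 0.95 (SE 0.21, adjusted p = 0.00537), Myog did not pass (-0.03, SE 0.08, adjusted p = 0.807), and the endplate kinase Musk did not pass (-0.48, SE 0.19, adjusted p = 0.0944). The Acta1 call was lost without MSC array 4 and with the macrophage mean as a covariate (up to 0.0812), the Myod1 call with the macrophage mean as a covariate (0.0966), and Musk was called without MSC array 3 or 4. Embryonic myosin Myh3 was higher in ventral than in facial (-0.96 for facial minus ventral, SE 0.22, adjusted p = 0.0256) and dorsal SKPs (-1.10 for dorsal minus ventral, SE 0.22, adjusted p = 0.0149). The first call was lost without any 1 facial array or ventral array 1 or 2, and the second without ventral array 1 or 2, with adjusted p up to 0.131 and 0.0989 over the alternatives.

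**Figure D3:**
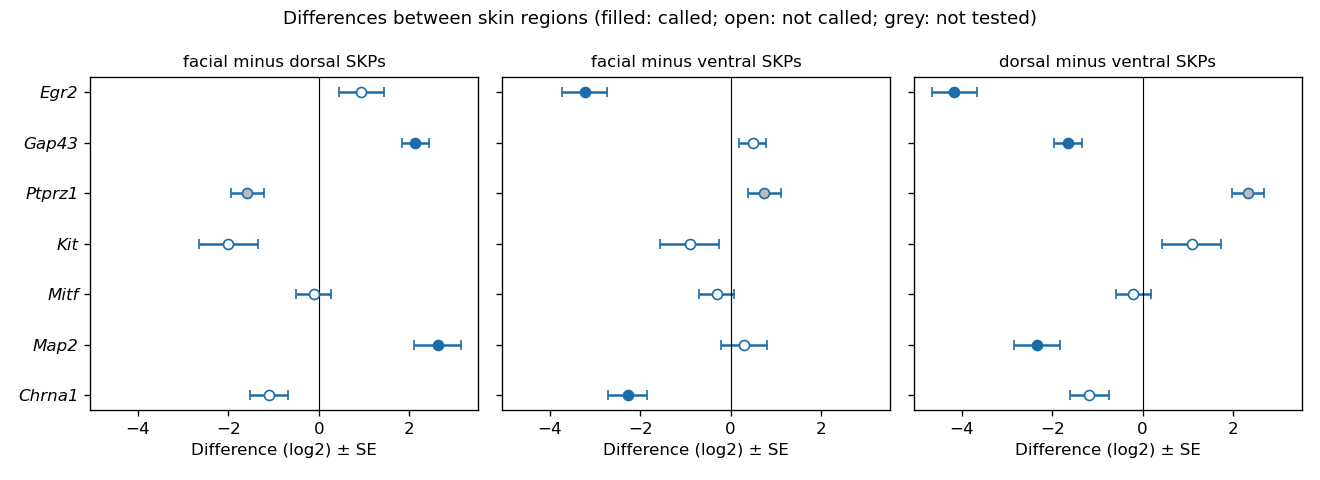
Differences between skin regions for the 7 genes (log2, with the SE of the fit), in 3 panels for facial minus dorsal, facial minus ventral and dorsal minus ventral SKPs. Filled points are called, open points are not, and grey points (Ptprz1) were not tested; Egr2 is called in both comparisons with ventral SKPs, and Gap43 and Map2 in both comparisons with dorsal SKPs.

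Across the comparisons of regions, the 7 genes did not move as 1 set. Of the 6 tested, 2 were called in facial minus dorsal SKPs (Gap43 and Map2), 2 in facial minus ventral SKPs (Egr2 and Chrna1), 3 in dorsal minus ventral SKPs (Egr2, Gap43 and Map2) and 2 in facial minus trunk SKPs (Gap43 and Chrna1). These comparisons share their arrays, and over all genes 1.25%, 6.6%, 6.11% and 2.7% were called in them. The genes were chosen for a higher level in SKPs than in MSCs, and in dorsal SKPs Egr2, Gap43 and Map2 overlapped with MSCs. Their regional calls are therefore not independent of that choice, and the shares are given for scale. Ventral SKPs had the highest mean of Egr2, Mitf and Chrna1, facial SKPs of Gap43 and Map2, and dorsal SKPs of Ptprz1 and Kit. Among the SKP regions, neighbours in the order of group means overlapped for Egr2 and Chrna1 between facial and dorsal SKPs. Facial and ventral SKPs did so for Gap43, Map2, Ptprz1 and Kit, and all 3 regions for Mitf except facial with ventral. Kit also overlapped between facial SKPs and MSCs. MSCs had the lowest mean of all 7 genes, and 3 of the 7 (Ptprz1, Mitf and Chrna1) did not overlap with SKPs, where 6.6% of all genes lay higher in SKPs without overlap. That share is given for scale, since the same contrast chose the genes.

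Profiles most like those of the 7 genes were found by the root mean square difference between log2 profiles, each centred on its own mean, over the 13 arrays. For Egr2, whose own profile had a root mean square of 1.90 around its mean, the nearest genes were Upk1b (0.706), Slc47a1 (0.719) and Jam2 (0.720). The nearest to Gap43 (own value 1.05) were Sytl3 (0.436), Epha7 (0.485) and Stra6 (0.517), and to Map2 (1.65) Tmtc2 (0.654), Crispld2 (0.699) and Tspan11 (0.706). Ptprz1 (2.39) was nearest to Ampd3 (0.628), Syngr1 (0.697) and Lrrc15 (0.769). Kit (1.56) was nearest to Bace2 (0.771), Fbxo32 (0.791) and Robo2 (0.830), and Chrna1 (1.60) to C1qtnf1 (0.530), Alx4 (0.540) and Bace2 (0.549). Mitf (1.13) had the closest matches, Fkbp5 (0.257), Angptl2 (0.304) and Crisp3 (0.308).

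Over the 9 SKP arrays alone, where the difference from MSCs plays no part, the lists changed for most genes. Egr2 (own value 1.90) was nearest to the matrix protein gene Mfap2 (0.452), to 6330403K07Rikl (0.558) and to nestin (Nes, 0.591), an intermediate filament of neural precursors. Nes stood at 7.42 to 7.62 on ventral and 3.57 to 5.12 on the other SKP arrays. Gap43 (0.995) was nearest to Fzd6 (0.459), Sytl3 (0.459) and Tspan11 (0.466), and Map2 (1.21) to Adgrl3 (0.354), Cd200 (0.390) and Cxcl14 (0.401). Ptprz1 (1.07) was nearest to Thrb (0.381), Avpr1a (0.414) and Mt1 (0.422), Kit (1.03) to Rgs2 (0.382), Slc24a4 (0.437) and Htr2a (0.497), and Chrna1 (1.10) to Lum (0.398), Nppb (0.420) and Adrb3 (0.439). Mitf varied little in SKPs (0.311) and lay nearest to Mid1 (0.092), Map2k3 (0.095) and Slc25a10 (0.108). Likeness of this kind rests on 13 or 9 arrays and on the group means they share. Of the genes nearest over 13 arrays, 1 also stood among the nearest over 9 for the same gene, namely Sytl3 for Gap43.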

How the data were processed

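RNA of 9 SKP and 4 MSC isolates was hybridised to Rat Gene 1.0 ST arrays from Affymetrix. The deposited values are log2 values that the authors made with RMA for core genes, using the Expression Console program, per the labels, and the submitters' processing notes also name limma. Versions: not given in the sources used here. RMA sets all arrays to 1 distribution, so differences are relative to the bulk of genes.

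They entered the fits as deposited (array medians 4.91 to 5.01). Of 29215 probe sets, 15310 had exactly 1 symbol, 323 had several and 13582 had none in the annotation given. The last 2 kinds were left out. For 527 genes with several probe sets the one with the highest mean was kept, giving 14506 genes. Low genes were kept, and arrays give no counts, so their number limits the precision.

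Group means were fitted with limma 3.58.1 in R 4.3.3 over all 13 arrays. The fit was tested on simulated data. The genes and lists were chosen with earlier results of these data known. Named genes were the 7, the called genes of each list with the largest differences (3 against MSCs, 2 between regions), a fixed set of defining markers, and the 3 nearest profiles. A part is named here, and genes of the lists that the text adds beyond this rule (Snai2, Srf, Ngfr, Pmp22, Prx, Trpm1, Sdc3, Nefm) were chosen after their values were seen. The choice of promoters and motifs was too. Alternatives were a filter on low values, arrays shifted to a common median, a variance trend with robust moderation, array weights, fewer groups in the fit, the sample number as a block, the macrophage mean as a covariate, the lowest probe set of a gene, and leaving out each array.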

Additional observations from a re-analysis of the deposited data

Results flagged for a closer look

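In the 4 MSC arrays, 87 named genes were tested for a single array far from the others, and chance flags about 1 in 20. The measure is the gap to the nearest array as a share of the group's range. None of the 7 genes met it, and 6 others did. Tubb3 was lowest on MSC array 3 (6.45 against 6.72 to 6.75, share 0.908), Itgam was lowest there (2.84, share 0.887), Slc18a2 was lowest there (2.89, share 0.837) and Pax3 was highest there (5.07, share 0.873). On MSC array 2, Ncam1 was lowest (8.86, share 0.872) and Egr1 was highest (9.56, share 0.832).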

How the results depend on the processing

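Of the differences of the 7 genes, those of Mitf in facial minus dorsal (-0.56 to 0.13) and dorsal minus ventral SKPs (-0.44 to 0.12), neither called, changed sign. The filter on low values, the common median and the variance trend left every tested call of the 6 genes between regions as it was. So did the lowest probe set, which leaves the values of these genes unchanged because each had a single probe set. With array weights Egr2 in facial minus trunk SKPs was -1.42 and Map2 was 1.58, both then called. With only the compared groups in the fit, Gap43 in facial minus dorsal (2.14) and facial minus trunk SKPs (1.32) and Chrna1 in facial minus trunk SKPs (-1.69) lost their calls, and Map2 in facial minus trunk SKPs (1.46) gained one. With the macrophage mean as a covariate, calls were lost by Gap43 (1.72) and Chrna1 (-1.76) in facial minus trunk, Map2 in facial minus dorsal (2.56) and Chrna1 in facial minus ventral SKPs (-2.35). The cause was not tested. Leaving out 1 array gave, for facial minus trunk SKPs, Egr2 -1.53 to -0.94, Gap43 0.88 to 1.57, Map2 1.21 to 1.63 and Chrna1 -1.99 to -1.46. For facial minus dorsal SKPs it gave Map2 2.37 to 2.88 and Chrna1 -1.71 to -0.64, and for dorsal minus ventral SKPs Map2 -2.58 to -2.13 and Chrna1 -1.63 to -0.57.

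Counts of called genes moved more. SKPs minus MSCs fell from 3672 to 2382 with the macrophage covariate. Facial minus dorsal SKPs (182) gave 43 with only its groups, 36 with the covariate and 94 to 258 without 1 array. Facial minus ventral SKPs (958) gave 2441 with array weights, 1932 with only its groups, 288 with the covariate and 390 to 1416 without 1 array. Dorsal minus ventral SKPs (886) gave 1519 with array weights, 373 with only its groups and 327 to 937 without 1 array. Facial minus trunk SKPs (391) gave 690 with array weights, 53 with the covariate and 149 to 524 without 1 array. On the common median its split was 178 higher and 324 lower, against 185 and 206.

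Whether the sample numbers pair the isolates was not settled. Deviations from group means of same-numbered arrays correlated at -0.122 to 0.199 across genes, and those of other pairs at -0.275 to 0.294. Of 12 arrays, 5 correlated best with their own number. Deviations within a group sum to 0, which holds the mean correlation near 0, so this check cannot exclude shared animals or batches. With the sample number as a block, 106 genes were called in facial minus dorsal, 566 in dorsal minus ventral and 173 in facial minus trunk SKPs. Gap43 (1.32) and Chrna1 (-1.69) in facial minus trunk and Map2 in facial minus dorsal SKPs (2.63) then missed the threshold.

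Genes at or below background, such as Ptprz1 and Chrna1 in MSCs, have differences whose size is not resolved.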
